A study of Mus musculus with 6 samples.

Results

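The vascular endothelial growth factor (VEGF) family was examined as 10 genes, 5 ligands (*Vegfa*, *Vegfb*, *Vegfc*, *Vegfd* and *Pgf*) and 5 receptors and co-receptors (*Kdr*, *Flt1*, *Flt4*, *Nrp1* and *Nrp2*), taken by symbol from a table of 54532 genes. Whole lungs of 3 WT C57BL/6J mice and 3 ISM1-/- mice, a line generated in-house on the same background, were sequenced at 2 months old, untreated, with 1 library per sample. The WT mice were purchased, so effects of genotype and of where the mice came from cannot be told apart. The edgeR p-values set the difference between the groups against the variation between libraries of the same group, for these 6 libraries. ISM1 is a secreted protein that is reported to inhibit angiogenesis, so the comparison asks whether the VEGF genes of the lung differ in level when *Ism1* is targeted.

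VEGF ligands are secreted dimers that bind receptor tyrosine kinases on endothelial cells. VEGF-A acts mainly through KDR (VEGFR2), which drives growth, survival and permeability of blood vessels, while FLT1 (VEGFR1) binds VEGF-A, VEGF-B and placental growth factor (PGF) and acts largely as a decoy. VEGF-C and VEGF-D act through FLT4 (VEGFR3) and govern lymphatic vessels, and the neuropilins NRP1 and NRP2 are co-receptors that also bind class 3 semaphorins. In the lung, alveolar type 1 epithelial cells are a major source of VEGF-A for the capillaries that lie against them.

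*Vegfc* rose in the libraries labelled ISM1-/-, to 1.30 times the WT level, and it was the only 1 of the 10 genes to pass an adjusted p under 0.1. No other ligand and no receptor passed. All 10 genes passed the filter on low counts (0.5 CPM, counts scaled to library size, reached in 1 library or more), which left 18689 genes for the test. Of these, 4.72% passed the same threshold in either direction and 1.38% as higher in the libraries labelled ISM1-/-, so 1 call among 10 genes lies near this background. None of the 10 passed when at least a 2-fold change was also required, where 0.567% of all genes did. At an unadjusted p under 0.05, 2 of the 10 (*Vegfa* and *Vegfc*) passed, against 15.8% of all genes. Without overlap between the genotypes were 4 of the 10 (21.6% of all genes in either direction), *Vegfa* and *Vegfc* as higher (9.33% of all genes) and *Flt4* and *Nrp2* as lower (12.3% of all genes). In whole lung, fewer cells of a type and less RNA per cell cannot be told apart.

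Library totals ranged from 37606133 to 42345042 counts, and the counts of these genes ran from 129 (*Pgf*) to 61133 (*Vegfa*), so *Pgf* carried the widest interval. The targeted gene itself was at 82.2, 77.5 and 76.9 CPM in WT and at 65.5, 66.1 and 75.7 CPM in the libraries labelled ISM1-/- (log2 fold change -0.19, edgeR quasi-likelihood adjusted p = 0.217). The transcript persisted, gene counts do not show which exons it holds, and each direction given below follows the genotype named in the labels. Markers of other tissues moved with genotype or with 1 library. The summed level of 10 cardiomyocyte markers was 1682, 548 and 657 CPM in WT against 299 to 583 CPM in the libraries labelled ISM1-/-, with WT replicate 1 far above the rest. The 10 adipocyte markers summed to 244 to 294 CPM in WT and 96.9 to 169 CPM in the libraries labelled ISM1-/-, and the 8 neutrophil markers to 44.7 to 59.4 CPM and 75.1 to 131 CPM. The part of these cells in the values below was not tested. *Xist* had 44398 to 51058 counts and 4 Y-linked genes had 0 counts in each of the 6 libraries, which bears on *Vegfd*, an X-linked gene.

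The promoters of 3 ligands are shown because *Vegfc* is the gene that passed, *Vegfd* binds the same receptor and did not, and *Vegfa* is the most abundant ligand. Each is the stretch of 250 bases before the RefSeq start site on GRCm38.p6, 5′ to 3′ along the gene's strand, at chr8:54077282-54077531 (forward) for *Vegfc*, chrX:164373272-164373521 (forward) for *Vegfd* and chr17:46032378-46032627 (reverse) for *Vegfa*. Capitals mark a GC box (GGGCGG) or a TATA box (TATAAA) on either strand.
Vegfc: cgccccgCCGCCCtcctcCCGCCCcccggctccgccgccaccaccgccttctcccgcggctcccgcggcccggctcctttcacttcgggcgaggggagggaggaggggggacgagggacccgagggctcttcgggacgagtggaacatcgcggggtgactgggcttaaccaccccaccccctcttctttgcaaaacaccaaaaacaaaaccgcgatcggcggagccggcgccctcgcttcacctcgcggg
Vegfd: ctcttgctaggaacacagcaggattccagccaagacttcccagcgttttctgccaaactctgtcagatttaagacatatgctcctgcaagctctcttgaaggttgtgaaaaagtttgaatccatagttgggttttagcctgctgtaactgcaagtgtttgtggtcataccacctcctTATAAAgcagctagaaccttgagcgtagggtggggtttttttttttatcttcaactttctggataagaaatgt
Vegfa: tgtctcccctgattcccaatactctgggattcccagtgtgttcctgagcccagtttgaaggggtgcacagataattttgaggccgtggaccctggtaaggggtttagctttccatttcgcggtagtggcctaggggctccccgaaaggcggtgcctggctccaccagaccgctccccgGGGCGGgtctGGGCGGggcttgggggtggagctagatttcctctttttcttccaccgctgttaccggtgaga

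The *Vegfc* window held 71.6% GC, 30 CpG dinucleotides and 2 GC boxes, whereas that of *Vegfd* held 42.4% GC, 2 CpG dinucleotides, no GC box and 1 TATA box. The *Vegfa* window held 59.2% GC, 11 CpG dinucleotides and 2 GC boxes, beside a median of 52.4% GC over 32851 promoter windows of the same length. GC boxes were present in 32.7% and TATA boxes in 12.4% of those windows. The core of the hypoxia response element (ACGTG) matched in 16.6% of all windows and in none of the windows of the 10 genes, for which the first listed start site was used. The RefSeq start is not always that of the counted annotation. The windows of *Vegfd* and *Nrp2* run past the starts of the counted genes, at 164373378 and 62703285. That of *Kdr*, on the reverse strand, reaches 75978456 and so overlaps the counted gene, which ends at 75978458. The windows of *Flt4*, *Nrp1* and *Pgf* lie inside the counted genes. A match of letters, or its absence, describes this window only.

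Among the ligands, *Vegfc* (ENSMUSG00000031520, GRCm38 chromosome 8, 54077606 to 54187096, forward strand) encodes the main lymphatic growth factor of the family. The WT libraries held 527, 596 and 620 counts of it, and the ISM1-/- libraries 841, 714 and 747. As TMM-normalised CPM, WT stood at 14.0, 14.4 and 16.03 and ISM1-/- at 19.8, 18.8 and 19.2. Every ISM1-/- library lay above every WT library. The mean was 14.8 ± 1.09 CPM in WT and 19.2 ± 0.489 CPM in the libraries labelled ISM1-/- (SD, n = 3), a log2 fold change of 0.38 (95% interval 0.20 to 0.56, edgeR adjusted p = 0.0431). When single libraries were omitted, the log2 fold change stayed between 0.34 and 0.44, but the adjusted p was under 0.1 in only 2 of the 6 edgeR fits. It was 0.107 without WT replicate 1, 0.168 without WT replicate 2, 0.143 without ISM1-/- replicate 1 and 0.128 without ISM1-/- replicate 2.

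*Vegfd* (chromosome X, 164373378 to 164402650, forward strand) encodes the other ligand of FLT4. Its level was 50.2, 45.6 and 48.9 CPM in WT and 55.7, 45.8 and 60.9 CPM in the libraries labelled ISM1-/-. ISM1-/- replicate 2 lay within the WT range while the other two ISM1-/- libraries lay above it. The log2 fold change was 0.17 (95% interval -0.054 to 0.39, edgeR adjusted p = 0.464), that is between 0.963-fold and 1.31-fold. *Vegfc* made up 28.0 ± 1.70% of the summed *Vegfc* and *Vegfd* FPKM in WT and 31.3 ± 2.90% in the libraries labelled ISM1-/- (SD, n = 3), and the genotypes overlapped in this share.

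*Vegfa* (ENSMUSG00000023951, chromosome 17, 46016993 to 46032369, reverse strand) was read at 1256, 1348 and 1317 CPM in WT and at 1438, 1480 and 1393 CPM in the libraries labelled ISM1-/-. The genotypes did not overlap, and the lowest value was that of WT replicate 1. The mean was 1310 ± 47.0 CPM in WT and 1440 ± 43.5 CPM in the libraries labelled ISM1-/- (SD, n = 3), a log2 fold change of 0.14 (95% interval 0.0056 to 0.27), which did not pass the threshold (unadjusted p = 0.0426, edgeR adjusted p = 0.292). In the 6 fits that left out 1 library its adjusted p ran from 0.144 to 0.502. Beside it, the summed level of 10 alveolar type 1 markers was 5993, 7761 and 7980 CPM in WT and 7809, 8265 and 8407 CPM in the libraries labelled ISM1-/-, with the lowest value again in WT replicate 1, and its part in the *Vegfa* values was not tested. *Rtkn2* was the only 1 of those 10 markers to pass, as higher, with a log2 fold change of 0.45 (adjusted p = 0.0715, edgeR), where 1.38% of all genes tested passed as higher. In mean 9 of the 10 were higher and 1 lower (*Aqp5* at -0.0074), with a median log2 fold change of 0.15.

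*Vegfb* (chromosome 19, 6982473 to 6987651, reverse strand), a ligand of FLT1 that is abundant in heart and brown fat, was at 26.2, 26.3 and 22.4 CPM in WT and at 24.4, 21.2 and 19.9 CPM in the libraries labelled ISM1-/-. WT replicate 3 fell among the ISM1-/- libraries, and the log2 fold change of -0.19 (95% interval -0.41 to 0.020) did not pass (adjusted p = 0.37, edgeR). The cardiomyocyte and adipocyte sums given above were lower in the libraries labelled ISM1-/- as well, and their part in the *Vegfb* values was not tested. Over the 6 fits that each omitted 1 library, its log2 fold change ran from -0.28 to -0.13.

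*Pgf* (chromosome 12, 85166635 to 85177790, reverse strand) encodes placental growth factor, the other FLT1-selective ligand. It was the least abundant member, at 4.30, 3.35 and 3.34 CPM in WT and 3.90, 3.43 and 4.36 CPM in the libraries labelled ISM1-/-. The genotypes overlapped, and the interval of the log2 fold change ran from -0.27 to 0.45 around 0.091 (adjusted p = 0.851, edgeR).

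**Figure D1:**
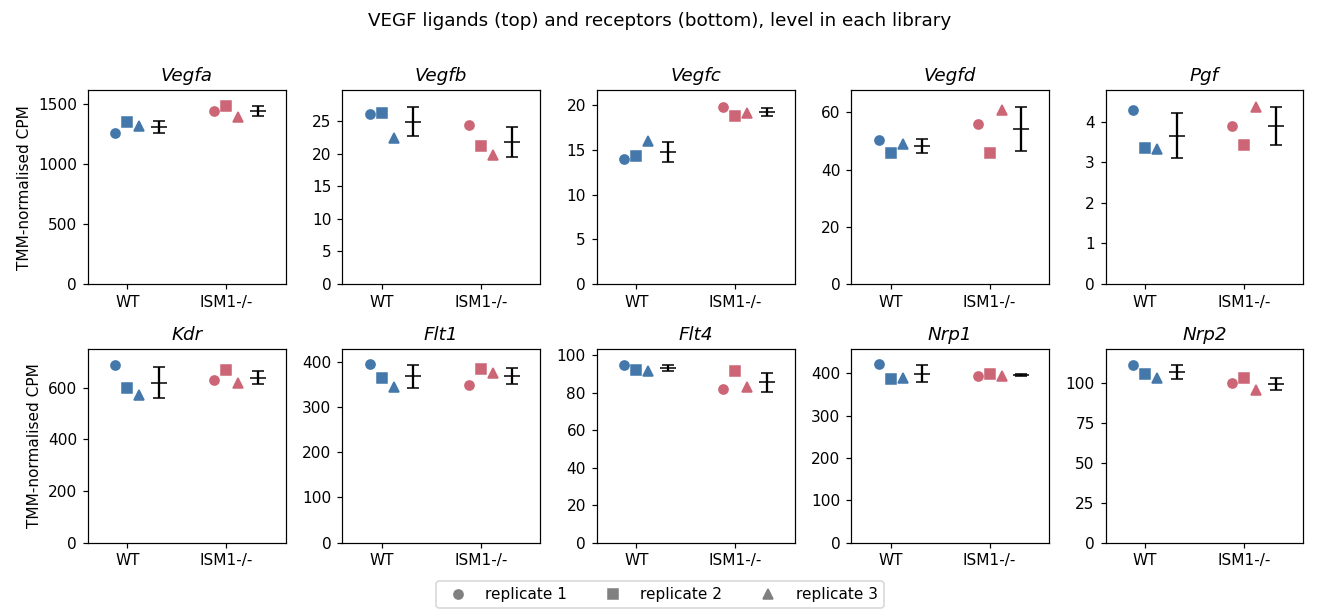
TMM-normalised CPM (vertical axis, from 0) of each VEGF gene in the 3 WT (blue) and 3 ISM1-/- (red) libraries, 1 marker shape per replicate number, with mean and SD in black. *Vegfc* and *Vegfa* lie higher in all 3 ISM1-/- libraries, from 18.8 CPM against at most 16.03 CPM and from 1393 CPM against at most 1348 CPM, while *Kdr*, *Flt1* and *Nrp1* overlap and all 5 receptors have their highest value in WT replicate 1.

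None of the 5 receptors passed the test. *Kdr* (ENSMUSG00000062960, chromosome 5, 75932827 to 75978458, reverse strand), the main signalling receptor for VEGF-A, was at 688, 600 and 573 CPM in WT and 630, 667 and 619 CPM in the libraries labelled ISM1-/-. The ISM1-/- values lay inside the WT range. The log2 fold change was 0.043 with a 95% interval of -0.13 to 0.21, that is between 0.917-fold and 1.16-fold (adjusted p = 0.85, edgeR).

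*Flt1* (chromosome 5, 147561604 to 147726011, reverse strand) was at 394, 364 and 344 CPM in WT and 349, 382 and 375 CPM in the libraries labelled ISM1-/-. These ranges overlapped, and the log2 fold change was 0.0059, with an interval of 0.905-fold to 1.11-fold (adjusted p = 0.983, edgeR). *Nrp1* (chromosome 8, 128358604 to 128503363, forward strand), the co-receptor that enhances binding of VEGF-A to KDR, was at 421, 387 and 389 CPM in WT and 394, 398 and 395 CPM in the libraries labelled ISM1-/-. It too overlapped, with a log2 interval of -0.14 to 0.11 (adjusted p = 0.948, edgeR).

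*Flt4* (ENSMUSG00000020357, chromosome 11, 49609263 to 49652739, forward strand), the receptor of VEGF-C and VEGF-D, was at 94.98, 92.3 and 91.9 CPM in WT and at 82.2, 91.5 and 83.1 CPM in the libraries labelled ISM1-/-. The genotypes did not overlap, by a margin of 91.85 against 91.48 CPM at the nearest libraries. The log2 fold change of -0.12 (95% interval -0.26 to 0.016) did not pass (adjusted p = 0.383, edgeR). *Nrp2* (chromosome 1, 62703285 to 62818695, forward strand), the co-receptor that pairs with FLT4 on lymphatic vessels, was at 111.2, 105.2 and 103.0 CPM in WT and at 99.8, 102.7 and 95.1 CPM in the libraries labelled ISM1-/-. It was also without overlap and did not pass, with a log2 fold change of -0.10 (95% interval -0.23 to 0.029, adjusted p = 0.45, edgeR).

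**Figure D2:**
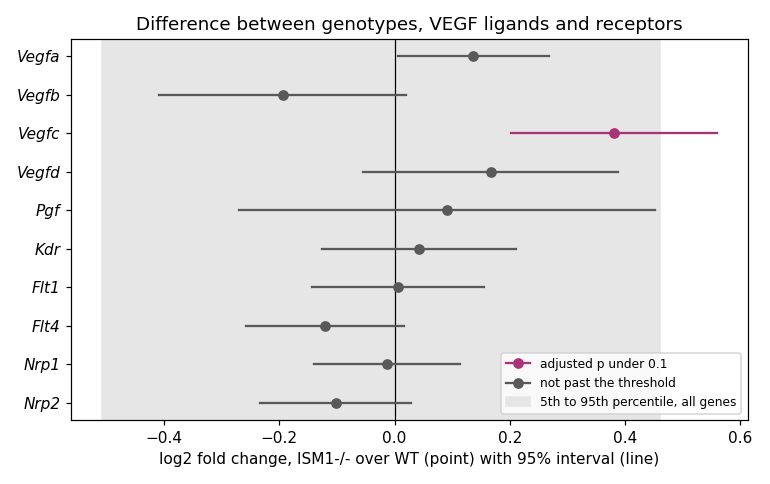
Log2 fold change of ISM1-/- over WT (horizontal axis) for the 10 genes, with the 95% interval of edgeR's quasi-likelihood fit; the grey band spans the 5th to 95th percentile of all genes tested (-0.51 to 0.46). The interval of *Vegfc* (0.20 to 0.56) lies farthest from 0, and those of all 5 receptors include 0.

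WT replicate 1 held the highest value of all 5 receptors, whereas 18.5% of all genes tested had their highest value in that library. It also held the lowest value of *Vegfa* and *Vegfc*. Without it the log2 fold changes of the receptors were 0.13 for *Kdr*, 0.060 for *Flt1*, -0.10 for *Flt4*, 0.030 for *Nrp1* and -0.068 for *Nrp2*, none with an adjusted p under 0.42 in edgeR. The same library stood apart in cardiomyocyte and alveolar type 1 markers (above), and whether these bear on the receptor values was not tested.

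Levels of different genes were compared on the deposited FPKM, which are scaled by length. The length that the FPKM imply is shorter than the length column of the same table for all 10 genes, for example 3218 against 9785 bases for *Nrp1* and 2989 against 13504 bases for *Flt1*, so levels and shares depend on which length is used. *Vegfa* stood far above the other members, at 1060 ± 37.2 FPKM in WT and 1160 ± 45.5 FPKM in the libraries labelled ISM1-/- (SD, n = 3), and ranked 33rd among the genes tested. It made up 93.5 ± 0.382% of the summed FPKM of the 5 ligands in WT and 93.7 ± 0.605% in the libraries labelled ISM1-/-. *Kdr* followed at 142 ± 13.9 FPKM in WT, and *Nrp1* (124 ± 6.12) and *Flt1* (123 ± 8.40) came next with libraries that overlapped in both genotypes. With CPM divided by the length column instead, *Nrp1* (40.8 ± 1.98 CPM per kilobase in WT) was above *Flt1* (27.2 ± 1.85), and *Vegfa* made up 87.7% of the ligands. *Vegfd* (32.6 ± 1.65) and *Vegfb* (25.9 ± 2.29) were apart from their neighbours in the order. *Flt4* (18.9 ± 0.353) and *Nrp2* (18.8 ± 0.752) overlapped with each other in both genotypes on FPKM, whereas on the length column they were at 11.3 ± 0.205 and 8.99 ± 0.357 CPM per kilobase in WT.

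*Vegfc* lay below *Nrp2* in each of the 6 libraries, at 12.7 ± 0.946 FPKM in WT and 16.4 ± 0.505 FPKM in the libraries labelled ISM1-/-. The ranges of these genes were apart in WT and overlapped in the libraries labelled ISM1-/-, where *Nrp2* was at 17.4 ± 0.841 FPKM. *Pgf* was lowest in both genotypes, at 2.63 ± 0.398 FPKM in WT. Of the receptors, *Kdr*, *Flt1* and *Nrp1* made up 33.2%, 28.8% and 29.1% of the summed receptor FPKM in WT and 34.2%, 28.9% and 28.8% in the libraries labelled ISM1-/-. With the length column these WT shares were 43.7%, 17.3% and 26.0%. On FPKM, *Flt4* made up 4.44 ± 0.215% in WT and 4.07 ± 0.128% in the libraries labelled ISM1-/-, and *Nrp2* 4.41 ± 0.120% and 4.10 ± 0.128%. The counts are per gene, so secreted *Flt1* and the splice forms of *Vegfa* are included in the totals and were not resolved; GENCODE M 21 lists 8 protein-coding transcripts for *Vegfa* and 2 for *Flt1*.

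**Figure D3:**
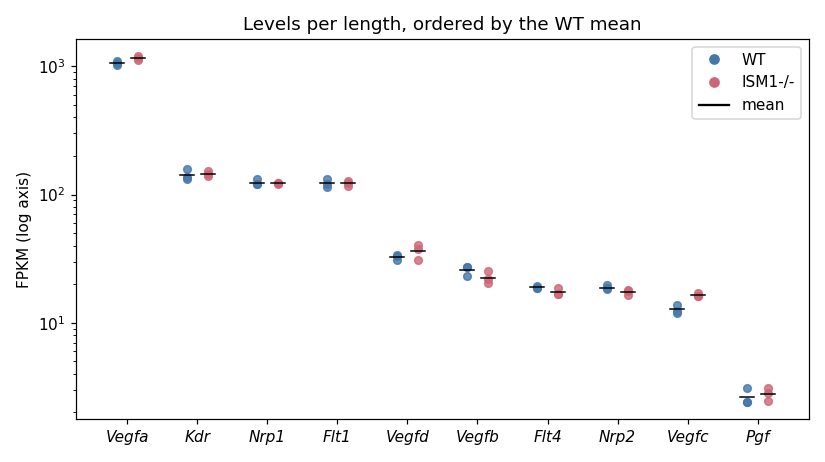
Deposited FPKM on a log axis for the 10 genes in the order of their WT mean, with the 3 WT (blue) and 3 ISM1-/- (red) libraries as points and the mean as a bar. *Vegfa* lies near 1060 FPKM in WT, the trio *Kdr*, *Nrp1* and *Flt1* between 123 and 142 FPKM, and *Pgf* at 2.63 FPKM.

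Each receptor was also set against 16 pan-endothelial markers, as log2 CPM minus the mean log2 CPM of the markers in the same library. The markers themselves averaged 7.86, 7.83 and 7.77 in WT and 7.95, 7.999 and 7.93 in the libraries labelled ISM1-/-, a difference of 0.14 on the log2 scale without overlap (two-sided exact permutation test, p = 0.1, the smallest that 3 libraries against 3 allow). Among them *Sox17*, a transcription factor of arterial endothelium, rose by 0.51 on the log2 scale (adjusted p = 0.0153, edgeR). *Cdh5* and *Pecam1*, which encode junctional proteins of all endothelium, had log2 fold changes of 0.13 and 0.14 and did not pass (adjusted p = 0.312 and 0.281, edgeR).

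On this relative scale all 5 receptors were lower in the libraries labelled ISM1-/- without overlap, where 31.8% of all genes tested were lower without overlap and 2.4% higher without overlap after the same subtraction. The differences were -0.26 for *Flt4*, -0.24 for *Nrp2*, -0.15 for *Nrp1*, -0.13 for *Flt1* and -0.092 for *Kdr* (exact permutation p = 0.1 for each, and 0.1 after adjustment over the 5). They share 1 reference and are not independent of each other. *Flt4* was at -1.29, -1.31 and -1.25 in WT and at -1.58, -1.48 and -1.56 in the libraries labelled ISM1-/-, and *Nrp2* at -1.06, -1.12 and -1.09 in WT and at -1.31, -1.32 and -1.36 in the libraries labelled ISM1-/-. With *Cdh5* alone as the reference the difference of *Flt4* was -0.25 and that of *Nrp2* -0.23 (exact permutation p = 0.1 for both), while *Kdr* (-0.081) and *Flt1* (-0.12) then overlapped between the genotypes (exact p = 0.2 for both). With *Pecam1* alone *Kdr* overlapped as well (-0.090, exact p = 0.4), so of these 3 references the mean of the 16 markers alone separated all 5 receptors. Without WT replicate 1 the difference of *Kdr* was -0.033.

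**Figure D4:**
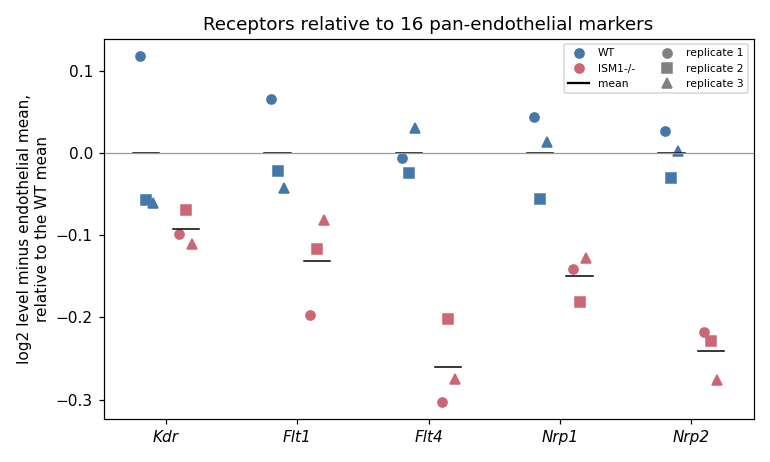
Log2 CPM of each receptor minus the mean log2 CPM of 16 pan-endothelial markers, shown relative to the WT mean (vertical axis), with 1 marker shape per replicate number and bars for the means. The ISM1-/- points (red) lie below the WT points (blue) for all 5 receptors, by 0.26 on average for *Flt4* and by 0.092 for *Kdr*, whose WT mean is raised by replicate 1.

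Ligand and receptor were set against each other within each library for 6 ligand and receptor pairs and for *Flt1* over *Kdr*. The log2 ratio of *Vegfc* to *Flt4* was -2.76, -2.68 and -2.52 in WT and -2.05, -2.28 and -2.12 in the libraries labelled ISM1-/-. It was higher in every ISM1-/- library, by 0.50 on average or 1.42-fold (two-sided exact permutation p = 0.1, adjusted p = 0.525 over the 7 ratios). With 1 library left out this difference ran from 0.45 to 0.57. *Vegfc* and *Flt4* were each already without overlap in opposite directions, so the separation of their ratio is not a separate result. In the other 6 ratios the genotypes overlapped. *Vegfd* over *Flt4* differed by 0.28 (exact p = 0.3), *Vegfa* over *Flt1* by 0.13 (exact p = 0.2), *Vegfa* over *Kdr* by 0.090 (exact p = 0.8) and *Vegfb* over *Flt1* by -0.20 (exact p = 0.3). *Pgf* over *Flt1* differed by 0.085 (exact p = 0.6) and *Flt1* over *Kdr* by -0.039 (exact p = 0.5).

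Lymphatic endothelium is a main cell type on which VEGF-C acts through FLT4. Which cells of the lung held *Flt4* was not resolved in these whole-lung counts. Of 10 lymphatic markers 9 could be tested and none passed in either direction, where 4.72% of all genes tested did. With so few genes, no call lies near this background. Of the 9, 5 had a higher mean (*Pdpn*, *Thy1*, *Sema3d*, *Gpm6a* and *Itga2b*, log2 fold changes of 0.11 to 0.27). The other 4 had a lower mean (*Prox1*, *Reln*, *Lyve1* and *Mmrn1*, -0.26 to -0.056). The median log2 fold change of the 9 was 0.11, which is the value of *Pdpn*, beside 0.0043 over all genes tested. *Gpm6a* is also on the mesothelial list. *Pdpn*, which encodes podoplanin and is also a gene of alveolar type 1 cells, was at 141 ± 24.1 CPM in WT and 152 ± 11.2 CPM in the libraries labelled ISM1-/- (SD, n = 3, adjusted p = 0.705, edgeR). *Lyve1*, a hyaluronan receptor, was at 295 ± 37.2 CPM in WT and 267 ± 30.7 CPM in the libraries labelled ISM1-/-, and *Prox1*, the master regulator of lymphatic identity, at 6.18 ± 1.04 and 5.16 ± 0.178 CPM (SD, n = 3, adjusted p = 0.569 and 0.427, edgeR). *Ccl21a* was at 0 counts in 5 of the 6 libraries and was not tested. The summed level of the list was 527 to 647 CPM in WT and 552 to 649 CPM in the libraries labelled ISM1-/-. Most of that sum came from *Lyve1*, *Pdpn* and *Gpm6a* (78.2 CPM in WT), so neither the sum nor the median reads lymphatic endothelium alone. Of 7 tested genes for the processing of VEGF-C and VEGF-D none passed, beside the same 4.72% of all genes tested. *Ccbe1*, which assists the cleavage of VEGF-C, had a log2 fold change of 0.28 (adjusted p = 0.377, edgeR).

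In the blood endothelial lists every called gene was higher, and the counts are to be read beside the 1.38% of all genes called as higher. In the pan-endothelial list 1 of 16 genes passed, *Sox17*, as higher. The list median was 0.13 on the log2 scale, with 14 genes higher and 2 lower in mean (*Tek* at -0.11 and *Eng* at -0.076). In the capillary list 2 of 12 passed, both as higher. These were *Sema3c*, a semaphorin that binds the neuropilins, with 444 ± 40.4 CPM in WT and 630 ± 123 CPM in the libraries labelled ISM1-/- (adjusted p = 0.0706, edgeR), and the chemokine gene *Cxcl12*, with a log2 fold change of 0.29 (adjusted p = 0.0872, edgeR). In mean, 9 of the 12 capillary genes were higher and 3 lower, among the latter *Plvap* at -0.25 on the log2 scale (adjusted p = 0.197, edgeR). The same *Sox17* was the 1 gene of 11 to pass in the arterial and venous list, where 7 were higher and 4 lower in mean. The summed level of the arterial and venous genes was 1168 to 1189 CPM in WT and 1294 to 1333 CPM in the libraries labelled ISM1-/-. For the pan-endothelial genes it was 5288 to 5617 and 5728 to 6035 CPM. The part of endothelial cell number in the value of *Vegfc* was not tested.

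Downstream of the receptors, 34 genes of VEGF receptor signalling were tested, of which 1 passed as higher and 1 as lower. Of all genes tested 4.72% passed in either direction, 1.38% as higher and 3.34% as lower, so these calls lie near the background. The adaptor gene *Nck1* rose from 46.8 ± 2.93 to 59.8 ± 5.17 CPM (SD, n = 3, adjusted p = 0.0505, edgeR). *Vav2* fell from 80.9 ± 3.53 to 66.8 ± 0.915 CPM (SD, n = 3, adjusted p = 0.0417, edgeR). None of 15 genes induced in endothelium by VEGF passed, a list that includes *Pgf* itself. The Notch ligand *Dll4*, a textbook target of VEGF-A in sprouting vessels, had a mean of 116 CPM in WT and 114 CPM in the libraries labelled ISM1-/- (n = 3), and *Apln*, which encodes the ligand of the apelin receptor, was at 68.6 ± 5.69 and 77.0 ± 4.84 CPM (SD, n = 3). Neither passed. None of 12 genes of the Notch axis and none of 12 genes of the angiopoietin and PDGF list passed.

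Among regulators of hypoxia, which induces *Vegfa*, none of 10 genes passed, where 4.72% of all genes tested passed in either direction. *Epas1*, the endothelial HIF subunit, was at 3240 ± 218 CPM in WT and 3290 ± 57.9 CPM in the libraries labelled ISM1-/- (SD, n = 3). Of 14 hypoxia target genes 1 passed, as lower, where 3.34% of all genes tested did. This was *Slc2a1*, the gene of a glucose transporter, at 26.0 ± 0.506 CPM in WT and 21.8 ± 1.05 CPM in the libraries labelled ISM1-/- (SD, n = 3, adjusted p = 0.0873, edgeR). The list's median log2 fold change was -0.038. *Sema3c*, described above, was the only 1 of 12 semaphorin and plexin genes to pass, as higher, where 1.38% of all genes tested did. Of 12 angiogenesis inhibitors 1 passed, as lower, beside the same 3.34% of all genes. This was *Serpinf1*, which encodes pigment epithelium-derived factor, an inhibitor of vessel growth. It fell from 25.5 ± 1.07 to 17.2 ± 0.644 CPM (SD, n = 3, log2 fold change -0.57, adjusted p = 0.00995, edgeR). The genes called in the fibroblast and adipocyte lists (below) were lower as well, and the part of those cells in the *Serpinf1* value was not tested.

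The following counts are to be read beside the 1.38% of all genes called as higher and the 3.34% called as lower. In the fibroblast list 4 of 11 genes passed, all as lower, with *Pi16* at -0.97, *Lum* at -0.76 and *Dcn* at -0.54 on the log2 scale, beside *Inmt* at 0.057 and *Npnt* at 0.15, which did not pass. Of 10 pericyte and smooth muscle genes 1 passed, *Cnn1*, as lower. In the adipocyte list 7 of 10 passed as lower (median log2 fold change -1.80) and in the neutrophil list 5 of 8 as higher (median 1.09), among them *S100a8* at 1.49 and *S100a9* at 1.46. The cardiomyocyte list had 1 of 10 passing as lower, *Myl7*, with all 10 lower in mean (median log2 fold change -1.07), and the mesothelial list 1 of 7 as higher, *Upk1b*. None of 5 genes of blood left after perfusion passed. The part of these cell types in the values of *Vegfb*, *Vegfc* and *Vegfd* was not tested.

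**Figure D5:**
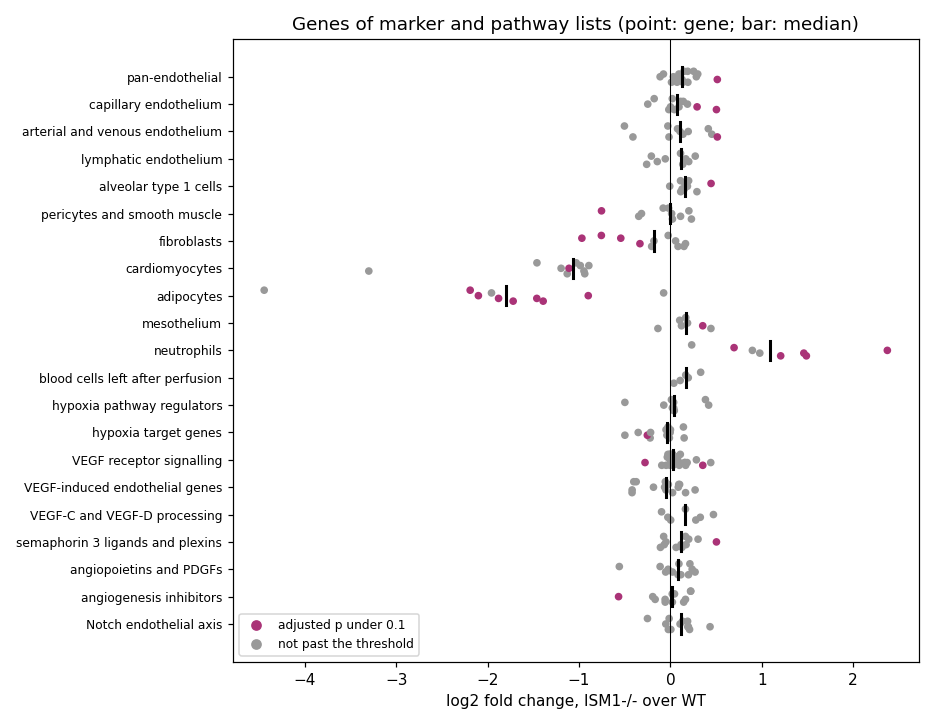
Log2 fold change of ISM1-/- over WT (horizontal axis) of each gene in 21 marker and pathway lists, with genes at an adjusted p under 0.1 in purple and the list median as a bar. The endothelial, hypoxia and VEGF signalling lists lie near 0 (medians from -0.049 to 0.13), while the adipocyte (-1.80), neutrophil (1.09) and cardiomyocyte (-1.07) lists lie far from it.

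The genes whose pattern over the 6 libraries was most like that of *Vegfa*, by Pearson's r of log2 CPM among the 12495 genes averaging 5 CPM or more, were *Notch4* (r = 0.996), *Ptprm* (0.987) and *Rnf216* (0.983). For *Kdr* they were *Sox11* (r = 0.989), *Trib3* (0.988) and *Pcdh19* (0.985). With 6 libraries and this many genes such values describe the libraries only. No gene with counts overlaps a member on GRCm38 apart from 2 transcripts within *Nrp2*, on which the mean count was 0.833 and 47.7, against 4065 for *Nrp2*.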

How the data were processed

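Poor reads and adaptors were filtered out by the authors from paired reads of strand-specific poly-A libraries of perfused whole lung, and the rest mapped to GRCm38 with STAR. They deposited raw counts per gene, as whole numbers, and FPKM, in which the counts are divided by the library total and by a length fixed for each gene. The counting program and its strand setting are not given in the sources used here.

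The count analysis used edgeR 4.0.16 (R 4.3.3). Genes that reached 0.5 CPM in 1 library or more were scaled by TMM and compared by the quasi-likelihood test of edgeR, with p-values adjusted by Benjamini-Hochberg over all 18689 genes tested, without covariates. Adjusted p under 0.1 was counted as passing, with and without a 2-fold minimum. The log2 CPM used a prior count of 2. Log2 fold changes are ISM1-/- over WT. Alternatives used DESeq2 1.42.0 and limma 3.58.1. The tests were tested on simulated data. Every pair of libraries differed by more than sampling noise (chi-square per degree of freedom at least 5.10). The replicate numbers were not used to pair the mice in the main test. Deviations of same-numbered libraries had correlations of -0.040 to 0.031, beside -0.061 to 0.051 for unlike numbers. These values show no sign of pairing but cannot exclude it.

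The 10 members and the gene lists were chosen with earlier results of these data known. The genes named are the members, *Ism1*, in each list the strongest called genes in each direction (at most 3) and the 2 most abundant, the 3 genes most like *Vegfa* and *Kdr*, and genes overlapping a member. The division by the length column was also chosen after seeing the data. *Prox1*, *Reln*, *Mmrn1*, *Thy1*, *Sema3d*, *Gpm6a*, *Itga2b*, *Ccl21a*, *Ccbe1*, *Xist* and 4 Y-linked genes were added after their values were seen. Promoter sequences are from RefSeq, matched by symbol for all 10 members, and transcript numbers from GENCODE M 21.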

Additional observations from a re-analysis of the deposited data

How the results depend on the processing

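*Vegfc* was the 1 member called by edgeR with RLE size factors, by DESeq2, by limma on log2(FPKM + 0.1) and log2(FPKM + 1), under the other filters, at an adjusted p under 0.05 and with the replicate block (log2 fold changes of 0.35 to 0.39, adjusted p from 0.00621 to 0.058). With the replicate block its log2 fold change was 0.38 (adjusted p = 0.046, edgeR), and the number of genes called was 1105 against 882. Asking for a 2-fold change left 0 members and 106 genes, an adjusted p under 0.05 left 455 genes, and no filter on low counts gave 1632 genes. With 1 library left out, between 0 and 1 members and between 150 and 1470 genes were called, lowest without WT replicate 2 and highest without ISM1-/- replicate 3. Differences near 0 changed sign. *Flt1* was at -8e-04 without a filter and at -9e-04 with limma on FPKM under both pseudocounts, and over the fits that left out 1 library it ran from -0.040 to 0.060. *Kdr* ran from -0.011 to 0.13, *Nrp1* from -0.034 to 0.030 and the log2 ratio of *Vegfa* to *Kdr* from -0.015 (without WT replicate 1) to 0.15. The cause was not tested. The 5 receptors kept a negative difference from the endothelial markers under each reference, scaling, pairing and omission tried. Each reference was itself higher in the libraries labelled ISM1-/- (the 16 markers by 0.14, *Cdh5* by 0.13 and *Pecam1* by 0.14 on the log2 scale). A gene with an unchanged level therefore comes out negative under each of them. The scaling and the pairing cancel in this difference by construction, so the constant sign is not a separate support. With 3 libraries per genotype, no exact permutation p can go below 0.1. Dividing CPM by the length column of the deposited table, an alternative chosen after seeing the data, moved 0 members to another rank in WT. The planned division by the length implied by FPKM returns the FPKM order by construction and tests nothing.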
